A study of Mus musculus with 36 samples.

Results

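The genes described here are 10 brakes on MAP kinase signalling: the dual-specificity phosphatases Dusp1, Dusp2, Dusp4, Dusp5, Dusp6 and Dusp10, and the adaptor genes Spry1, Spry2, Spred1 and Spred2. They were chosen by gene symbol, and every probe with one of these symbols was read on all 36 arrays. In all 18 probes were matched to 9 of the 10 genes, out of 25697 probes for 16593 genes. Dusp5 was matched to none and was not analysed here. Of the 18 probes 12 were detected on enough arrays to be tested, which left 7 genes (Dusp1, Dusp2, Dusp4, Dusp6, Dusp10, Spred1 and Spred2) among the 7585 genes tested on the whole array.

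MAP kinases are switched on by phosphorylation of a threonine and a tyrosine in their activation loop, and dual-specificity phosphatases switch them off by removing both phosphates. Many of these phosphatases are induced by the pathway they restrain: Dusp1 and Dusp10 act mainly on the stress kinases p38 and JNK, Dusp6 is a cytoplasmic phosphatase of ERK, and Dusp2 and Dusp4 are nuclear enzymes. Sprouty and Spred proteins act further upstream, on the RAS to RAF step that leads to ERK, and Spred1 brings the RAS inhibitor neurofibromin to the membrane.

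RNA came from mouse T cells of 3 genotypes, each at 0, 1 and 4 h of stimulation, with 4 arrays in each of the 9 groups. PM cells (Malt1PM/-) carried the Malt1 allele that the labels call PM over a null allele, KO cells (Malt1-/-) carried null alleles alone, and het cells (Malt1+/-) had 1 working allele over a null. MALT1 links the antigen receptor to NF-kB as a scaffold and as a protease (paracaspase), and the series title concerns telling those functions apart. All samples carry the strain label B6.C-Tg(CMV-cre)1Cgn/J, a line whose Cre is driven by the broadly active CMV promoter. Every group thus shared that strain and at least 1 null allele, and none was wild type. The protocols describe both total T cells, depleted of B220+ and CD11b+ cells, and CD4+ T cells, and both PMA with ionomycin and plate-bound antibodies to CD3 and CD28, without saying which applied. The design text speaks of 3 biological replicates where the labels list 4, and nothing says whether these were separate mice, so p-values measure the spread between these samples, which may be technical.

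The arrays detected 7713 to 10291 probes each, and precision is limited by the 4 arrays of a group. Malt1 signal was lower in KO than in het cells at 0 h (log2 difference -1.29, limma adjusted p = 0.00725), at 1 h (-2.08 between measured means, adjusted p = 1.55e-06, a fold of at least 3.44) and at 4 h (-1.47, adjusted p = 3.55e-05). In PM cells Malt1 differed from het by -0.86 at 0 h (adjusted p = 0.191), while at 1 h the difference was -1.13 (adjusted p = 0.0184) and at 4 h it was -1.20 (adjusted p = 0.00136). Within KO cells the Malt1 signal was higher at 4 h than at rest (means 5.82 and 4.79, log2 1.03, adjusted p = 0.000349), and at 4 h PM and KO differed by 0.28 (adjusted p = 0.801). Whether the Malt1 probe lies in the deleted part is not given in the sources used here. T cell markers were detected for 8 of the 8 genes on the array, with an array mean between 10.02 and 10.90 (log2 signal) at 0 and 4 h. At 4 h these T cell means were 10.28 to 10.54 in PM, 10.71 to 10.90 in KO and 10.02 to 10.47 in het cells, so KO and het did not overlap at the time of the genotype calls. Markers of other cells had lower ranges at 4 h than at 0 h: the mean of 6 B cell genes lay between 4.95 and 6.47 at 4 h, against 6.10 to 7.98 at 0 h, that of 3 NK genes between 6.10 and 7.19 at 4 h, against 8.22 to 9.12 at 0 h, and that of 7 myeloid genes between 5.37 and 6.79 at 4 h, against 7.42 to 8.54 at 0 h. Of the defining markers Itgam, Ncr1, Klrb1c and Cd8a were not detected, while Cd8b1 spanned 7.99 to 9.05 at 4 h, against 9.82 to 10.83 at 0 h. The mean of 3 regulatory T cell genes was higher at 4 h, at 6.32 to 7.02 in PM, 6.08 to 6.51 in KO and 6.34 to 6.95 in het cells, against 5.32 to 5.91, 4.81 to 4.99 and 5.22 to 5.48 at 0 h. The 1 erythroid gene tested reached 7.31 in PM, 8.02 in KO and 6.72 in het cells at 4 h. The part of these shifts in any result below was not tested, and in bulk RNA fewer cells of a type and less RNA per cell cannot be told apart.

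The resting arrays of replicate 3 stood apart in all 3 genotypes, and Dusp1 was among the genes that set them apart. Resting replicate 3 had Dusp1 at 10.54 in PM, 11.05 in KO and 10.70 in het cells, against 8.09 to 8.43 in PM, 8.21 to 8.50 in KO and 7.93 to 8.32 in het cells for the other resting arrays (log2 signal). Ordered by the excess of replicate 3 over the mean of the other 3 resting arrays, Dusp1 ranked 3 in PM, 4 in KO and 4 in het of the 7585 genes. The AP-1 genes Fos, Fosb, Jun and Junb moved with it: Fosb, for example, was at 7.78 in PM, 7.49 in KO and 7.50 in het cells in replicate 3 and between 4.29 and 4.67 on the other 9 resting arrays. Dusp10 was not part of this, with replicate 3 minus the others at -0.03 in PM, -0.15 in KO and 0.08 in het cells. The AP-1 gene Fosl1, near background, gave 0.20, -0.03 and -0.03 in that order, and Mcl1 gave 0.20, -0.14 and -0.31. Changes of Dusp1 from rest are given with and without these arrays, as are the Dusp2 and Dusp6 changes whose call moved without them. Other changes from rest, those of the AP-1 genes and further lists among them, are not given without these arrays alone.

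**Figure D1:**
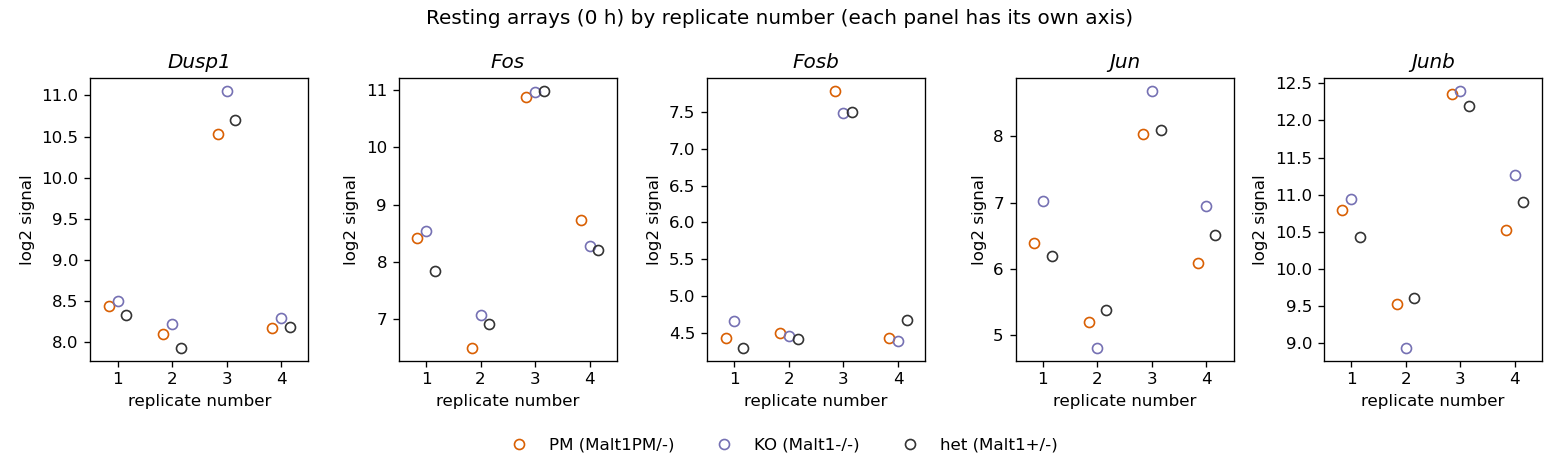
Log2 signal of Dusp1 and 4 AP-1 genes on the 12 resting (0 h) arrays, by replicate number (x axis), with 1 point per array coloured by genotype. Replicate 3 lies above the other 3 replicates for all 5 genes in all 3 genotypes, with Dusp1 between 10.54 and 11.05 there and at or below 8.50 elsewhere.

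At 1 h of stimulation most of the 7 tested brakes were higher than at rest, with fewer calls under median scaling. Of the 7 tested genes 5 rose and 0 fell in PM cells (Dusp1, Dusp2, Dusp4, Dusp6 and Dusp10), where 10.3% of all tested genes were called higher and 13.1% lower. In KO cells 4 rose and 0 fell (Dusp1, Dusp4, Dusp6 and Dusp10), against 12.4% of all genes called higher and 15.7% lower. In het cells 5 rose and 0 fell (Dusp1, Dusp2, Dusp4, Dusp6 and Dusp10), against 12.7% called higher and 15.5% lower. The median change of the 7 genes was 0.91 in PM, 0.77 in KO and 1.14 in het cells on the log2 scale, where the median of all tested genes was -0.08 in PM, -0.07 in KO and -0.07 in het cells. A call is an adjusted p under 0.05 (limma, Benjamini-Hochberg over all 7585 genes of the comparison). All changes are differences of normalized log2 signal, and each gene is read from its brightest detected probe.

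By 4 h the set had split. Relative to rest 3 genes were higher and 0 lower in PM cells (Dusp4, Dusp6 and Spred1), against 24% of all genes called higher and 27.1% lower. In KO cells 3 were higher and 0 lower (Dusp4, Dusp6 and Spred1), against 22.2% and 24%. In het cells Dusp2, Dusp4 and Spred1 were higher and Dusp10 was lower, against 26.9% of all genes called higher and 28.3% lower. Between 1 and 4 h 1 gene rose and 3 fell in PM cells (23.6% and 24.2% of all genes), 1 rose and 2 fell in KO cells (22.4% and 22.1%), and 1 rose and 3 fell in het cells (25.7% and 27%). The gene that rose was Spred1 in each genotype. Dusp1 and Dusp10 fell in all 3, with Dusp4 in PM and Dusp6 in het cells.

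**Figure D2:**
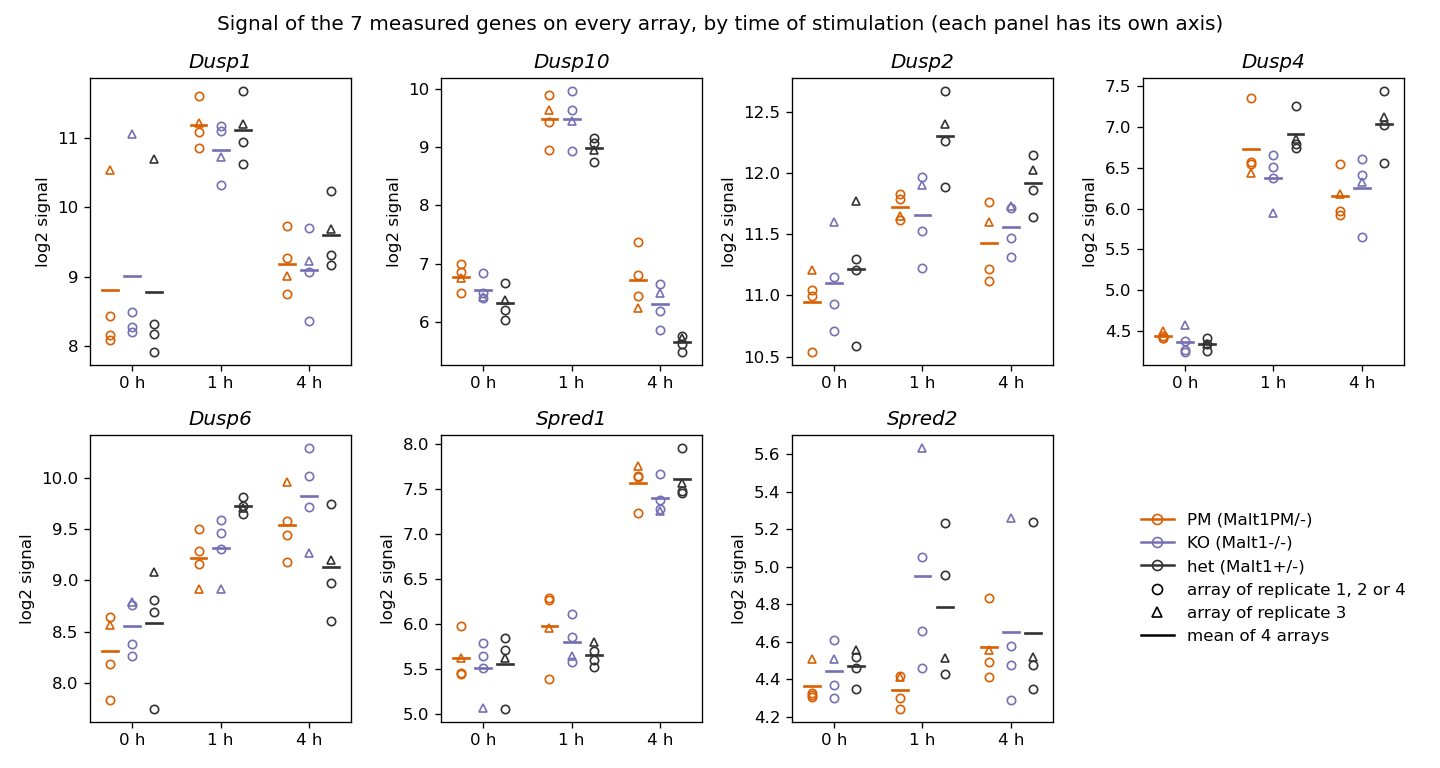
Log2 signal of the 7 tested genes on each of the 36 arrays at 0, 1 and 4 h, with PM, KO and het side by side, bars at the mean of 4 arrays and triangles for replicate 3. Dusp10 stands between 8.73 and 9.95 at 1 h and at or below 7.37 at 0 and 4 h, while Spred1 stands between 7.23 and 7.95 at 4 h and at or below 6.29 at 0 and 1 h.

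Dusp10 was transient in all 3 genotypes. Its product removes phosphates from p38 and JNK, and the gene lies at chr1:184034381-184075636 (GRCm38.p6). In PM cells replicates 1 to 4 read 6.99, 6.49, 6.76 and 6.86 at 0 h, 9.90, 9.42, 9.64 and 8.94 at 1 h, and 7.37, 6.80, 6.24 and 6.45 at 4 h (log2 signal). In KO cells they read 6.84, 6.41, 6.43 and 6.49 at 0 h, 9.95, 9.63, 9.44 and 8.93 at 1 h, and 6.19, 6.64, 6.50 and 5.86 at 4 h. In het cells they read 6.04, 6.20, 6.38 and 6.67 at 0 h, 9.06, 9.16, 8.95 and 8.73 at 1 h, and 5.49, 5.61, 5.73 and 5.75 at 4 h. Every 1 h array lay above every 0 and 4 h array of any genotype. At 1 h Dusp10 was 6.50-fold higher than at rest in PM cells (log2 2.70, SE 0.22, limma adjusted p = 4.13e-11), 7.71-fold in KO cells (2.95, SE 0.22, adjusted p = 4.53e-12) and 6.30-fold in het cells (2.66, SE 0.22, adjusted p = 4.58e-11). From 1 to 4 h it fell by 2.76 in PM, by 3.19 in KO and by 3.33 in het cells on the log2 scale (adjusted p = 5.50e-12, 3.02e-13 and 4.48e-14 in that order). A second, dimmer Dusp10 probe also rose, by 2.19 in PM, 2.13 in KO and 1.97 in het cells. Its het arrays spread from 6.07 to 8.31 at 1 h, and a PM array at 4 h reached 6.42. On that probe, then, not every 1 h array lay above every 4 h array.

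The 4 h level of Dusp10 against rest passed the test in het cells and not in PM or KO cells. Het cells at 4 h lay below rest in 4 of 4 replicates with no overlap of the groups (log2 difference -0.67, SE 0.22, adjusted p = 0.00961), whereas the difference was -0.06 in PM cells (adjusted p = 0.844) and -0.24 in KO cells (adjusted p = 0.400). The het call was lost under median scaling, without background correction and without all arrays of replicate 3 (highest adjusted p of these 0.136), and the second probe gave -0.20 (adjusted p = 0.642). The difference between the genotypes' changes was not called for PM minus het (0.61, adjusted p = 0.903) or KO minus het (0.43, adjusted p = 0.716).

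Dusp1, an immediate early phosphatase of p38, JNK and ERK at chr17:26505591-26508472, was also transient, but its resting level was not uniform. In PM cells replicates 1 to 4 read 8.43, 8.09, 10.54 and 8.17 at 0 h, 10.86, 11.60, 11.22 and 11.08 at 1 h, and 9.27, 9.73, 9.01 and 8.75 at 4 h (log2 signal). In KO cells the arrays gave 8.50, 8.21, 11.05 and 8.28 at 0 h, 11.11, 11.17, 10.72 and 10.32 at 1 h, and 9.71, 9.07, 9.23 and 8.37 at 4 h. In het cells they gave 8.32, 7.93, 10.70 and 8.18 at 0 h, 10.94, 11.67, 11.20 and 10.62 at 1 h, and 9.31, 10.24, 9.68 and 9.17 at 4 h. Apart from replicate 3, whose resting arrays were near or above the 1 h level, each genotype was lowest at rest, highest at 1 h and between the levels at 4 h. At 1 h Dusp1 was 5.21-fold higher than at rest in PM (log2 2.38, SE 0.54, adjusted p = 0.00134), 3.53-fold in KO (1.82, SE 0.54, adjusted p = 0.0108) and 5.02-fold in het cells (2.33, SE 0.54, adjusted p = 0.00132). Within replicate 3 alone the 1 h change was 0.68 in PM, -0.33 in KO and 0.50 in het cells, and in the other replicates it lay between 2.04 and 3.74.

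Leaving out the resting arrays of replicate 3 raised the 1 h change of Dusp1 to 2.96 in PM, 2.50 in KO and 2.97 in het cells (log2). It also turned the 4 h change into a call in all 3 genotypes. With all arrays the change at 4 h was 0.38 in PM (adjusted p = 0.593), 0.08 in KO (adjusted p = 0.920) and 0.82 in het cells (adjusted p = 0.205). Without those 3 arrays it was 0.96 in PM (adjusted p = 0.00649), 0.76 in KO (adjusted p = 0.0316) and 1.46 in het cells (adjusted p = 8.12e-05). The step from 1 to 4 h was -2.00 in PM (adjusted p = 0.00264), -1.74 in KO (adjusted p = 0.00906) and -1.51 in het cells (adjusted p = 0.0192). Its size uses no resting array, but its p-values rest on a spread pooled over all 36 arrays. The SD of Dusp1 was 1.16 to 1.37 at rest, against 0.31 to 0.55 at 1 and 4 h. The step no longer passed in any genotype under median scaling. The het step was also lost without replicate 2 at 1 h (-1.32, adjusted p = 0.0611) or replicate 4 at 4 h (-1.36, adjusted p = 0.0544), and the KO rise at 1 h under median scaling or with replicates 1 to 3 only.

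The start regions of Dusp1 and Dusp10 are shown because both genes peaked at 1 h, and that of Spred1 because it rose only at 4 h. Each is 300 bases, from 250 before to 50 after the RefSeq start, read 5′ to 3′ on the gene's strand from RefSeq on GRCm38.p6. They lie at chr17:26508423-26508722 (minus strand) for Dusp1, chr1:184034131-184034430 (plus) for Dusp10 and chr2:117120821-117121120 (plus) for Spred1. Capitals mark matches to the motifs searched on both strands: the cyclic AMP response element (CRE) TGACGTCA, its core TGACG (which lies within the CRE), the AP-1 site TGANTCA, the ETS site CCGGAAGT, the EGR site GCGNGGGCG, and by name only the NF-kB site and the CArG box.
Dusp1: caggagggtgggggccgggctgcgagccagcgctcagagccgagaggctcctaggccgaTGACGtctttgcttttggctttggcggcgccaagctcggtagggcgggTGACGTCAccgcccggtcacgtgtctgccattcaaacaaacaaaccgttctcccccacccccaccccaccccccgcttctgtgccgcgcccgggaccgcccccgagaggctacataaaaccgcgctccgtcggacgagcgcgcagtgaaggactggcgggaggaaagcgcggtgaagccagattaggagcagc
Dusp10: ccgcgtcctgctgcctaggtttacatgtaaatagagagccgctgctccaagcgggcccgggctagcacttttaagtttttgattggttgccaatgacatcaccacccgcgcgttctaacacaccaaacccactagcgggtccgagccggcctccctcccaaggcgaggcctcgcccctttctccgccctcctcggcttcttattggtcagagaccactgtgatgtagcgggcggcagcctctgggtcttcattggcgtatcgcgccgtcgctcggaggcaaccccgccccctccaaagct
Spred1: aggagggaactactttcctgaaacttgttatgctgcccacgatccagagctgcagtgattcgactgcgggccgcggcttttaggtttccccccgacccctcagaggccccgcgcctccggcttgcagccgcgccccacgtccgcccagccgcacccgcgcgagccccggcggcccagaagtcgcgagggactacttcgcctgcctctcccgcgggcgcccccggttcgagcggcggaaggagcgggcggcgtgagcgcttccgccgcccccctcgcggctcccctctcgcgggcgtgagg
Dusp1 holds a full CRE at -143 to -136 from the start, a match that 1.79% of 32851 RefSeq promoters of the same length share, and a further core at -191 to -187, a match found in 20.8% of them. Dusp10 and Spred1 hold no match to any of the 7 motifs in this window. Of the other tested genes, Dusp2 holds an EGR site at -98 to -90 (5.55% of promoters) and a CRE core, Spred2 a CRE core and Dusp6 no match. Dusp4 was not searched. The other motifs were found in 7.81% (AP-1), 3.89% (ETS), 0.411% (NF-kB) and 1.63% (CArG box) of all promoters. These matches are descriptions of letters, and no binding was measured.

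Dusp4, a nuclear phosphatase of ERK and JNK at chr8:34807610-34819894, was not detected by its brightest probe on any of the 12 resting arrays and was detected on all 24 stimulated ones. A second Dusp4 probe was detected on 17 of the 36 arrays, and another on 0, with a signal between 4.18 and 4.65 (log2) at rest and after stimulation alike. On the brightest probe the 4 PM arrays read 4.42, 4.44, 4.50 and 4.41 at 0 h, 6.57, 6.55, 6.43 and 7.36 at 1 h, and 5.92, 5.97, 6.18 and 6.55 at 4 h (log2 signal). In KO cells the readings were 4.25, 4.27, 4.58 and 4.38 at 0 h, 6.65, 6.37, 5.95 and 6.51 at 1 h, and 5.65, 6.41, 6.32 and 6.61 at 4 h. In het cells the readings were 4.26, 4.42, 4.34 and 4.34 at 0 h, 6.80, 6.74, 6.85 and 7.26 at 1 h, and 6.56, 7.03, 7.12 and 7.44 at 4 h. All stimulated arrays lay above all resting arrays, and het cells at 4 h held the highest mean of the 9 groups.

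Since the resting arrays give only an upper bound for Dusp4, its fold is a lower bound, set against the lowest signal that was above background on each resting array or the probe's own signal where higher. At 1 h Dusp4 was at least 3.71-fold higher than at rest in PM, at least 2.92-fold in KO and at least 4.31-fold in het cells (limma adjusted p = 2.17e-10, 3.24e-09 and 1.05e-11 in that order). At 4 h it was at least 2.50-fold higher in PM, at least 2.68-fold in KO and at least 4.71-fold in het cells (adjusted p = 1.21e-08, 2.47e-09 and 4.46e-13). These p-values test the differences of measured means and not the bounds. In PM, KO and het cells the measured log2 differences were 2.28, 2.00 and 2.57 at 1 h and 1.71, 1.88 and 2.69 at 4 h. Between 1 and 4 h Dusp4 fell by 0.57 in PM cells (SE 0.20, adjusted p = 0.0182), while the difference was -0.12 in KO (adjusted p = 0.655) and 0.13 in het cells (adjusted p = 0.625). The PM call was lost under median scaling, in a fit of only the groups compared, and when replicate 4 at 1 h (-0.36, adjusted p = 0.133) or replicate 1 or 2 at 4 h was left out (adjusted p = 0.0617 and 0.0543).

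Dusp2 and Dusp6 changed less. Dusp2, an inducible nuclear phosphatase of leukocytes at chr2:127336159-127338377, was already bright at rest. PM arrays read 11.05, 10.54, 11.20 and 10.99 at 0 h, 11.83, 11.61, 11.65 and 11.78 at 1 h, and 11.12, 11.22, 11.60 and 11.76 at 4 h (log2 signal). KO arrays read 10.93, 10.71, 11.60 and 11.15 at 0 h, 11.22, 11.52, 11.90 and 11.97 at 1 h, and 11.31, 11.46, 11.73 and 11.71 at 4 h. Het arrays read 11.30, 10.59, 11.77 and 11.20 at 0 h, 12.26, 11.88, 12.39 and 12.66 at 1 h, and 11.64, 11.86, 12.02 and 12.14 at 4 h. The 1 h arrays lay above the resting ones with no overlap in PM and het cells, and overlapped them in KO cells.

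At 1 h Dusp2 was 1.71-fold higher than at rest in PM (log2 0.77, SE 0.22, adjusted p = 0.00809) and 2.12-fold in het cells (1.09, SE 0.22, adjusted p = 0.000235). In KO cells the change was 0.56 (adjusted p = 0.0519), and it passed with the replicate number as a block (adjusted p = 0.00417), which removes the shared level of arrays of the same number, without replicate 1 at 1 h (0.70, adjusted p = 0.0238) and without the resting arrays of replicate 3 (0.72, adjusted p = 0.0105). At 4 h the change was 0.70 in het cells (adjusted p = 0.00634), 0.48 in PM cells (adjusted p = 0.0635) and 0.46 in KO cells (adjusted p = 0.0834). Without the resting arrays of replicate 3 the 4 h change passed in PM (0.57, adjusted p = 0.0255) and KO cells (0.62, adjusted p = 0.0160) too. The second Dusp2 probe passed only in het cells at 1 h (1.27, adjusted p = 0.00306) among these 6 comparisons with rest. The PM rise at 1 h did not pass under median scaling (adjusted p = 0.104), and the het change at 4 h was lost without replicate 2 at rest (0.49, adjusted p = 0.0546).

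Dusp6, the cytoplasmic phosphatase of ERK at chr10:99263231-99267489, rose by 1 h in all 3 genotypes. PM arrays read 7.84, 8.19, 8.56 and 8.64 at 0 h, 9.16, 9.50, 8.91 and 9.29 at 1 h, and 9.18, 9.45, 9.96 and 9.58 at 4 h (log2 signal). KO arrays read 8.27, 8.76, 8.79 and 8.38 at 0 h, 9.31, 9.46, 8.92 and 9.59 at 1 h, and 10.29, 9.72, 9.27 and 10.02 at 4 h. Het arrays read 8.69, 8.81, 9.08 and 7.75 at 0 h, 9.72, 9.65, 9.71 and 9.81 at 1 h, and 8.61, 9.75, 9.20 and 8.97 at 4 h. The highest mean fell at 4 h in PM and KO cells and at 1 h in het cells, and all 1 h arrays of a genotype lay above its resting ones.

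The 1 h rise of Dusp6 was 0.91 in PM (SE 0.25, adjusted p = 0.00739), 0.77 in KO (adjusted p = 0.0200) and 1.14 in het cells (adjusted p = 0.000732) on the log2 scale, and it did not pass in any genotype under median scaling. The KO rise was lost without replicate 1 (0.67) or 4 (0.71) at rest or replicate 4 at 1 h (0.68), with an adjusted p of at least 0.0563. At 4 h Dusp6 was 2.35-fold higher than at rest in PM cells (log2 1.23, adjusted p = 0.000105) and 2.42-fold in KO cells (1.27, adjusted p = 8.51e-05), while the het change was 0.55 (adjusted p = 0.0626) and passed without replicate 3 at rest or replicate 1 at 4 h (0.72 each). The step from 1 to 4 h was 0.33 in PM (adjusted p = 0.302), 0.50 in KO (adjusted p = 0.104) and -0.59 in het cells (adjusted p = 0.0467). The KO step passed without replicate 3 at 4 h (0.69, adjusted p = 0.0325). The het step lost its call in 13 of the 18 alternatives, among them the removal of any 1 h array or of replicate 1, 3 or 4 at 4 h, with adjusted p-values from 0.00997 to 0.437 overall. The second Dusp6 probe was higher at 4 h than at rest in all 3 genotypes, by 1.29 in PM (adjusted p = 0.000753), 1.04 in KO (adjusted p = 0.00655) and 0.75 in het cells (adjusted p = 0.0395), so the probes disagree on the het call. Another, dim Dusp6 probe, detected on 17 arrays, passed in none of these comparisons.

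Spred1, at chr2:117121071-117182279, moved late. PM arrays read 5.45, 5.45, 5.62 and 5.98 at 0 h, 6.29, 5.39, 5.95 and 6.27 at 1 h, and 7.63, 7.23, 7.76 and 7.65 at 4 h (log2 signal). KO arrays read 5.51, 5.65, 5.07 and 5.79 at 0 h, 5.86, 5.57, 5.64 and 6.11 at 1 h, and 7.28, 7.38, 7.26 and 7.68 at 4 h. Het arrays read 5.06, 5.71, 5.62 and 5.85 at 0 h, 5.61, 5.52, 5.80 and 5.70 at 1 h, and 7.48, 7.46, 7.57 and 7.95 at 4 h. The 12 arrays at 4 h lay above the other 24, and those at 0 and 1 h overlapped in each genotype. At 4 h Spred1 was 3.85-fold higher than at rest in PM (log2 1.94, SE 0.19, adjusted p = 3.68e-10), 3.71-fold in KO (1.89, adjusted p = 8.55e-10) and 4.16-fold in het cells (2.06, adjusted p = 7.45e-11). The 1 h change was 0.35 in PM (adjusted p = 0.200), 0.29 in KO (adjusted p = 0.280) and 0.10 in het cells (adjusted p = 0.765), and the PM change passed without replicate 2 at 1 h (0.54, adjusted p = 0.0318).

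The remaining adaptor genes stayed near background. Spred2, at chr11:19924442-20024026, was detected on 5 of 36 arrays by 1 of its 3 probes, with a log2 signal between 4.24 and 5.63. The highest Spred2 group mean was that of KO cells at 1 h, with arrays at 5.05, 4.66, 5.63 and 4.46, against 4.61, 4.30, 4.50 and 4.37 in resting KO cells. That difference of 0.51 was not called (adjusted p = 0.0707) and passed with the replicate block (adjusted p = 0.0427) and without replicate 2 (adjusted p = 0.0430) or 4 (adjusted p = 0.0214) at 1 h. Array weights and replicates 1 to 3 only gave a call too (adjusted p = 0.00870 and 0.0361). The Spry1 probes were detected on 0 and 1 of the 36 arrays, with signals from 4.14 to 4.48 and from 4.11 to 4.69, and the Spry2 probe on 0, with signals from 4.12 to 4.31. The lowest signal above background on an array lay between 4.58 and 5.26 (log2), so Spry1, at chr3:37639947-37644599, and Spry2, at chr14:105891947-105896819, were not well above background and no change in them could be measured.

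**Figure D3:**
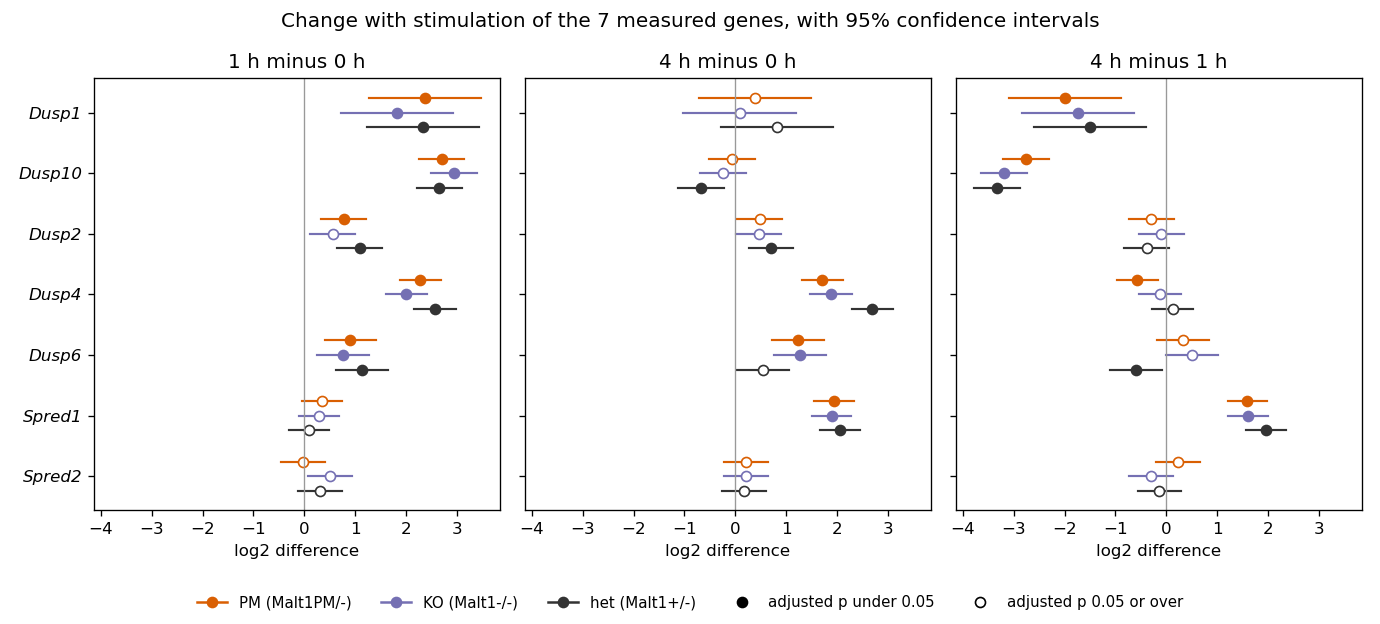
Change of the 7 tested genes with stimulation in PM, KO and het cells (log2 difference, x axis), with 95% confidence intervals and filled points for adjusted p under 0.05. The panels for 1 h minus 0 h, 4 h minus 0 h and 4 h minus 1 h show Dusp10 at 2.66 to 2.95 and then at -0.67 to -0.06 against rest, and Spred1 at 0.10 to 0.35 and then at 1.89 to 2.06. Dusp4 is plotted from measured means although its resting signal is not above background.

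At rest and at 1 h no brake differed between genotypes by the test. At 0 h 0 of 7 genes were called in PM against het (1 at an unadjusted p under 0.05 in limma), 0 in KO against het (0 unadjusted) and 0 in PM against KO (0 unadjusted). Over all genes 0.0791% were called in PM against het, 0.0527% in KO against het and 0.0659% in PM against KO. At 1 h the counts were 0 of 7 in each, with 3, 3 and 1 at an unadjusted p under 0.05, against 0.211%, 0.0527% and 0.0132% of all genes in the same order. PM and KO were compared with the same het arrays, so their differences from het are not independent of each other.

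For Dusp2, Dusp4 and Dusp6 the 1 h differences from het were negative in both mutants without passing the test. For Dusp10 and Spred1 they were positive in both mutants and were not called either. The Dusp10 differences were 0.50 in PM (unadjusted p = 0.0301 in limma) and 0.51 in KO cells (unadjusted p = 0.0264), above het in 4 of 4 replicates in both. Dusp2 averaged 11.72 ± 0.10 in PM cells, 11.65 ± 0.35 in KO cells and 12.30 ± 0.32 in het cells at 1 h (mean log2 signal ± SD, n = 4 each). Its difference from het was -0.58 in PM (95% interval -1.02 to -0.14, adjusted p = 0.778) and -0.65 in KO cells (-1.09 to -0.21, adjusted p = 0.999), below het in 4 of 4 replicates in both. Dusp4 differed from het by -0.54 in KO cells (95% interval -0.94 to -0.13, adjusted p = 0.999) with no overlap of the groups, and by -0.18 in PM cells with overlap. The Dusp6 differences were -0.51 in PM and -0.41 in KO cells, each without overlap on the brightest probe. On the second Dusp6 probe the 1 h means were 6.32 in PM, 6.71 in KO and 6.69 in het cells. Both mutants overlapped het there, and KO was not below it. In all, 3 of the 7 genes did not overlap in PM against het at 1 h (Dusp2, Dusp6 and Spred2) and 2 of 7 in KO against het (Dusp4 and Dusp6), where 2.24% and 1.53% of all genes did not. Spred2 was near background there, detected on 0 of 4 PM and 1 of 4 het arrays. None of these differences passed the test.

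At 4 h Dusp4 and Dusp10 differed between genotypes, in opposite directions. In PM against het cells 1 of 7 genes was higher (Dusp10) and 1 lower (Dusp4), against 2.03% of all genes called higher and 0.804% lower. In KO against het cells 0 were higher and 1 was lower (Dusp4), against 5.15% higher and 3.59% lower, with 3 of 7 at an unadjusted p under 0.05. In PM against KO cells 0 of 7 were called and 0 had an unadjusted p under 0.05 in limma, where 2.81% of all genes were called. Groups did not overlap for 2 of 7 genes in PM against het and 1 of 7 in KO against het, against 6.01% and 13.4% of all genes.

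Dusp4 at 4 h averaged 6.15 ± 0.28 in PM cells, 6.25 ± 0.41 in KO cells and 7.04 ± 0.36 in het cells (mean log2 signal ± SD, n = 4 each). PM cells were 1.84-fold lower than het (log2 -0.88, SE 0.20, adjusted p = 0.00778), with no overlap, and the differences within replicates 1 to 4 were -0.64, -1.06, -0.94 and -0.89. KO cells were 1.73-fold lower than het (-0.79, SE 0.20, adjusted p = 0.00889), with within-replicate differences of -0.91, -0.62, -0.80 and -0.83, and the groups overlapped. The second Dusp4 probe was above background at 4 h on 2 of 4 arrays in PM, 2 of 4 in KO and 3 of 4 in het cells, with means of 4.79, 4.90 and 5.49 in that order, so its differences are limited by background. PM and KO differed by -0.09 (95% interval -0.50 to 0.31, adjusted p = 0.984), an interval that leaves room for a difference of either sign. Without replicate 4 of het at 4 h neither call held (PM -0.75, adjusted p = 0.0581, and KO adjusted p = 0.0548), and both were also lost in a fit of only the groups compared and without all arrays of replicate 3. The PM call was lost under median scaling (adjusted p = 0.0819) and the KO call without replicate 1 of KO at 4 h (adjusted p = 0.0706).

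Dusp10 at 4 h averaged 6.71 ± 0.49 in PM cells, 6.30 ± 0.35 in KO cells and 5.65 ± 0.12 in het cells (mean log2 signal ± SD, n = 4 each). PM cells were 2.10-fold higher than het (log2 1.07, SE 0.22, 95% interval 0.62 to 1.52, adjusted p = 0.00328), higher in 4 of 4 replicates and with no overlap. In KO cells the difference was 0.65 (95% interval 0.20 to 1.10, adjusted p = 0.0594), also without overlap, and it passed with the replicate block (adjusted p = 0.0256) and without replicate 4 of KO (0.80, adjusted p = 0.0262). At 0 h the same differences were 0.45 in PM and 0.22 in KO cells, and at 1 h 0.50 and 0.51, none of them called. The second Dusp10 probe did not pass at 4 h (0.47 in PM, adjusted p = 0.818, and 0.55 in KO, adjusted p = 0.386). The PM call was lost under median scaling (adjusted p = 0.462), without background correction (0.45, adjusted p = 0.103) and in a fit of only the groups compared (adjusted p = 0.0746).

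The other genes were not called at 4 h. Dusp6 differed from het by 0.41 in PM (adjusted p = 0.678), whereas the KO difference was 0.69 (95% interval 0.18 to 1.20, adjusted p = 0.0848). Both had the opposite sign at 1 h on this brightest probe. The KO difference passed without replicate 2 of het (0.90, adjusted p = 0.0226) or replicate 3 of KO (0.88, adjusted p = 0.0320). The Dusp2 difference was -0.49 in PM cells (adjusted p = 0.381) and -0.36 in KO cells (adjusted p = 0.371), below het in 4 of 4 replicates in both. On the second Dusp2 probe the 4 h means were 10.31 in PM, 10.70 in KO and 10.77 in het cells, so KO lay close to het there. The Spred1 difference was -0.05 in PM and -0.22 in KO cells. That of Dusp1 was -0.41 in PM and -0.51 in KO cells with an SE of 0.54, so the interval of the KO difference, from -1.61 to 0.60, spans the differences that were called for Dusp4. This SE also holds the spread of the resting arrays, replicate 3 included.

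**Figure D4:**
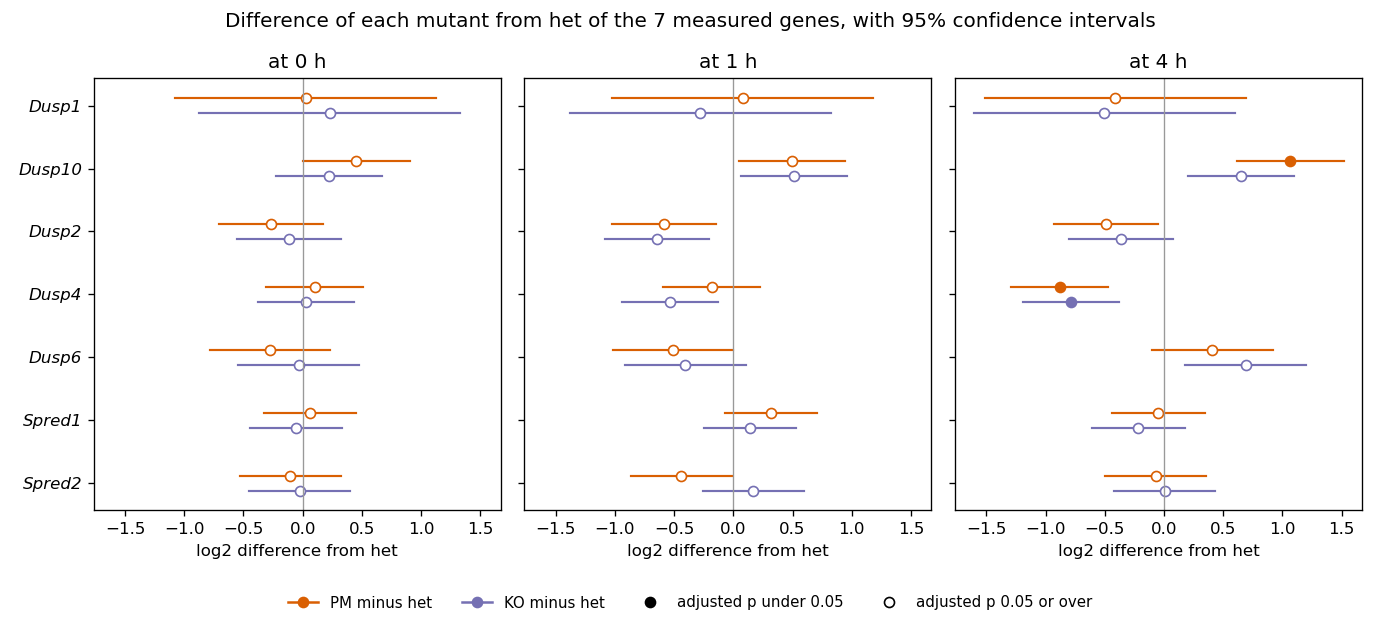
Difference of PM and KO from het cells for the 7 tested genes at 0, 1 and 4 h (log2 difference, x axis), with 95% confidence intervals and filled points for adjusted p under 0.05. The filled points are Dusp10 in PM (1.07) and Dusp4 in PM (-0.88) and KO (-0.79), all at 4 h.

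Whether stimulation changed a brake more in one genotype than in another was tested as a difference of changes, and 0 of 7 genes passed in any of 9 such comparisons. At 1 h the count was 0 by unadjusted p under 0.05 as well, and 0% of all genes were called in each of the 3 comparisons. For the 4 h change 1 gene had an unadjusted p under 0.05 in PM minus het, 2 in KO minus het and 0 in PM minus KO, where 0.132%, 1.99% and 0.369% of all genes were called. The Dusp4 change at 4 h differed by -0.98 in PM minus het (95% interval -1.56 to -0.41, unadjusted p = 0.00148 and adjusted p = 0.227 in limma) and by -0.81 in KO minus het (-1.39 to -0.24, unadjusted p = 0.00695 and adjusted p = 0.153). Both differences passed with the replicate block (adjusted p = 0.0378 for PM and 0.0390 for KO) and with array weights (0.0334 and 0.0325). Not every pair of 0 and 4 h arrays of the same number correlated above 0.1. Their r ran from 0.09 to 0.68 in PM and from -0.07 to 0.52 in KO cells. Resting Dusp4 was not above background, so the Dusp4 results are differences of changes known only as lower bounds.

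The step from 1 to 4 h was compared between genotypes after the values had been seen, because Dusp6 went opposite ways. No member passed, with 2 genes at an unadjusted p under 0.05 in PM minus het, 1 in KO minus het and 0 in PM minus KO, and 0.119%, 1.54% and 0.211% of all genes called. The Dusp6 step differed by 0.92 in PM minus het (95% interval 0.20 to 1.64, adjusted p = 0.658) and by 1.10 in KO minus het (0.37 to 1.82, adjusted p = 0.132), which passed without replicate 2 of het at 4 h (adjusted p = 0.0425). The second gene in PM minus het was Dusp4, with -0.70 (adjusted p = 0.715).

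Over the 36 arrays each member followed different genes most closely, as a description over arrays that share groups and replicate numbers. Dusp1 correlated most with Ppp1r15a, a phosphatase subunit of the stress response (Pearson r 0.929), Fos (0.919) and Fosb (0.915). Dusp4 correlated most with the cytokine gene Tnf (0.965), the early activation marker Cd69 (0.950) and the NF-kB subunit gene Rel (0.948). Dusp2 was nearest to P4hb (0.824), Map3k8 (0.815) and Phlda1 (0.804), and Dusp6 to Rela (0.816), Acot10 (0.804) and Arf6 (0.803). Dusp10 was nearest to Pja1 (0.954), the phosphodiesterase gene Pde4d (0.954) and Trim36 (0.940), and Spred1 to Tmem97 (0.969), Ddx1 (0.967) and Tbl3 (0.966). The dim Spred2 had no close companion, with Sik2 nearest (0.762), then Olfr1012 (0.700) and Lancl2 (0.683). Among the members, over the 9 group means, Dusp1 and Dusp10 correlated at 0.901 (0.727 over arrays), Dusp2 and Dusp4 at 0.892, Dusp4 and Dusp6 at 0.823, and Dusp10 and Spred1 at -0.464.

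Other dual-specificity phosphatases did not follow one direction. Of 17 listed genes 10 were tested, of which 2 rose and 3 fell at 1 h in each genotype. Among all genes 10.3% to 12.7% were called higher and 13.1% to 15.7% lower at 1 h, depending on the genotype. Dusp16, a phosphatase of JNK and p38, rose by 2.10 in PM (adjusted p = 0.00346), 2.68 in KO (adjusted p = 0.000223) and 2.34 in het cells (adjusted p = 0.000957) at 1 h, although the lowest 1 h array was at 5.78 in PM, 6.37 in KO and 6.14 in het cells, where the group means were 7.70, 8.29 and 8.06. It remained higher than at rest at 4 h, by 1.89 in PM, 1.77 in KO and 1.62 in het cells. Dusp8, another JNK and p38 phosphatase, was not above background at rest and was at least 2.57-fold higher at 1 h in PM, 2.52-fold in KO and 2.97-fold in het cells. At 4 h Dusp8 was detected on 1 of the 12 arrays. Dusp7, an ERK phosphatase related to Dusp6, went the other way at 1 h, by -1.35 in PM, -1.83 in KO and -1.91 in het cells (adjusted p at most 0.000267). At 4 h the counts were 2 higher and 5 lower in PM, 3 and 4 in KO, and 3 and 4 in het cells (in PM 24% of all genes were called higher and 27.1% lower). Between genotypes 1 gene was called, Dusp19 at 4 h, higher in KO than in het by 0.58 (adjusted p = 0.0377). Spry3, Spry4 and Spred3 were on the array and not tested, since they were not detected on enough arrays.

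Genes known to be induced downstream of ERK were also read. Of 14 tested immediate early genes 8 rose and 0 fell at 1 h in PM, 8 and 0 in KO, and 9 and 0 in het cells, with a median change of 1.03, 1.01 and 1.68 on the log2 scale beside the all-gene medians given above. Egr2 rose by 4.70 in PM, 4.86 in KO and 5.32 in het cells, and, with the high resting arrays of replicate 3 included, Fosb by 4.67, 4.67 and 4.62. From 1 to 4 h 2 rose and 7 fell in PM, 2 and 7 in KO, and 3 and 9 in het cells. Among all genes 23.6% rose and 24.2% fell in PM, 22.4% and 22.1% in KO, and 25.7% and 27% in het cells. Of 11 tested genes from RAS to ERK 1 rose and 1 fell at 1 h in PM, 2 and 3 in KO, and 1 and 1 in het cells. The all-gene shares at 1 h were 10.3% higher and 13.1% lower in PM, 12.4% and 15.7% in KO, and 12.7% and 15.5% in het. Nras fell in each, by 0.41 in PM, 0.43 in KO and 0.43 in het cells. Over all genes 24% were called higher and 27.1% lower in PM, 22.2% and 24% in KO, and 26.9% and 28.3% in het cells at 4 h, against which 1 rose and 4 fell in PM, 1 and 3 in KO, and 2 and 5 in het cells. With 11 genes these counts are too small to set the list apart from those 4 h shares, and no difference from them was tested. Rasal3, a RAS GTPase-activating protein gene, was among those that fell (log2 -2.01 in PM, -1.40 in KO and -2.41 in het cells).

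Of 12 tested genes of the JNK and p38 pathways, the substrates of Dusp1 and Dusp10 among them, 3 rose and 0 fell at 1 h in PM, 2 and 0 in KO, and 4 and 0 in het cells. These counts are to be read against the 1 h shares given above. The number called in PM ranged from 0 to 6 under other settings, apart from leaving out single arrays. In KO it ranged from 0 to 4 and in het cells from 2 to 4. At 4 h 5 rose and 3 fell in PM, 6 and 3 in KO, and 5 and 4 in het cells, to be read against the same 24% and 27.1%, 22.2% and 24%, and 26.9% and 28.3% of all genes. Map2k3, a kinase that activates p38, led these rises with 3.62 in PM, 3.55 in KO and 4.15 in het cells (log2 difference from rest). Between genotypes no gene of these 3 lists was called at 0 or 1 h or in PM against het at 4 h. In KO against het at 4 h Mapk14, which encodes p38 alpha, was higher by 1.38 (adjusted p = 5.87e-08), and Map3k8 and Mapkapk3 differed by -1.31 (adjusted p = 0.00391) and -1.14 (adjusted p = 0.00641).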

How the data were processed

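Illumina bead arrays were run on RNA of 36 mouse T cell samples, whose groups and replicate numbers come from the labels. Per the labels' protocols, biotinylated cRNA was made with an Ambion MessageAmp kit, and the submitters' processing notes name GenomeStudio 2011.1. The signal intensities were deposited by the authors without normalization, on a linear scale, per the file headers. The detection p-value of each probe was deposited beside its intensity. A processed table of intensities by the authors (75th percentile 42.6 on every array, medians 3.73 to 3.81), made by a method not given in the sources used here, served as an alternative. Columns of per-sample values left unused numbered 0.

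The raw intensities were background-corrected by normexp using those p-values, then quantile-normalized and log2-transformed with an offset of 16 (neqc, limma 3.58.1, R 4.3.3, statmod 1.5.0). Background correction changes the size of differences of dim probes. Of 25697 probes 23978 carry 1 gene symbol and 1719 none. Probes with a detection p-value under 0.01 on at least 4 arrays were kept (10961), and the brightest of them stood for its gene (1985 genes had more than 1), which left 7585 genes. One linear model with 9 group means (27 residual degrees of freedom) was fitted to all arrays, and moderated tests were adjusted by Benjamini-Hochberg within each of 24 comparisons and 3 added later. The test was tried on simulated data.

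Named are all 10 members with every probe, Malt1, at most 4 called genes per further list and comparison with the largest differences, and per member the 3 genes with the highest correlation over 36 arrays. A few other listed genes, and the AP-1 genes of the resting arrays, were named after their values were seen. The members and lists were chosen with earlier results of these data known. Of the arrays 94.4% correlated best with an array of their own number. Replicate numbers were checked as pairs on group-centred arrays: the median correlation was 0.405 between arrays of the same number and -0.132 between others, and every pair exceeded 0.1 in 12 of 18 comparisons of 2 groups. The blocked value is printed beside a result in those 12 where it changes the call. Gene positions and start regions are those of the RefSeq tables of GRCm38.p6.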

Additional observations from a re-analysis of the deposited data

Results flagged for a closer look

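Of 63 sets of 4 arrays (7 genes in 9 groups), 5 held 1 array that lay far from the other 3, where chance alone gives about 1 in 20. In 3 of the 5 this was Dusp1 on the resting array of replicate 3, with a log2 signal of 10.54 in PM cells (the others 8.09 to 8.43), 11.05 in KO cells (8.21 to 8.50) and 10.70 in het cells (7.93 to 8.32). The arrays are those on which Fos, Fosb, Jun and Junb also stood high, and the Dusp1 results with and without them are given above. Dusp4 in PM cells at 1 h had replicate 4 at 7.36, where the other 3 arrays lay between 6.43 and 6.57. Without that array the fall of Dusp4 between 1 and 4 h in PM cells no longer passed (-0.36, adjusted p = 0.133 in limma). Spred2 in resting PM cells had replicate 3 at 4.51, with the others between 4.30 and 4.33, all within the range of signals not above background.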

How the results depend on the processing

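The 38 called differences of single members were recomputed 708 times under other settings: 658 kept their call and direction, 50 lost the call and 0 turned round. Most of the 38 are changes with time. Each called genotype difference (Dusp10 in PM, and Dusp4 in PM and KO cells, at 4 h) lost its call under several settings, as given above. Of 151 differences not called, 3303 recomputations gained a call 46 times. The number of members called moved by more than 1.5 times as follows. Under median scaling it was 3 for PM at 1 h against rest, 2 for PM at 4 h against 1 h, 2 for KO at 1 h against rest, 2 for het at 4 h against 1 h and 0 for PM against het at 4 h. Under this scaling the median change of all genes at 1 h against rest was -0.30 in PM, -0.28 in KO and -0.16 in het cells, where it was -0.08, -0.07 and -0.07 under quantile normalization. Without the resting arrays of replicate 3 it was 5 at 4 h against rest in PM and 5 in KO cells. It was 2 for het at 4 h against 1 h both without a detection filter and with replicates 1 to 3 only. PM against het at 4 h gave 1 member without background correction, 0 with only the groups compared and 1 without all arrays of replicate 3. KO against het at 4 h gave 2 with the authors' processed table, 2 with the replicate block, 3 with array weights, 2 with replicates 1 to 3 only, 0 with only the groups compared and 0 without all arrays of replicate 3. The difference of the 4 h change gave 1 member with the replicate block and 1 with array weights, for PM minus het and for KO minus het alike, and the step of KO minus het gave 1 with array weights. In comparisons where not every pair of the same number correlated above 0.1, the block changed Dusp2 at 4 h against rest in PM (adjusted p = 0.00731) and KO cells (0.0114) and at 4 h against 1 h in het cells (0.0278). Leaving out each array in turn gave 5 to 6 (PM), 3 to 5 (KO) and 5 (het) members at 1 h against rest, and 3 to 4, 3 to 4 and 3 to 6 at 4 h against rest. It gave 3 to 4, 3 to 4 and 2 to 4 at 4 h against 1 h, 1 to 2 for PM against het and 0 to 2 for KO against het at 4 h, and 0 to 1 for the step of KO minus het. The cause of these moves was not tested. Members near background (Spred2, Spry1, Spry2) and resting Dusp4 are limited by signal over background.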

Other observations

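In the RAS to ERK and the JNK and p38 lists, 3 genes differed between PM and KO cells at 4 h, a comparison in which no member of the set was called. Rasa1, a RAS GTPase-activating protein gene, was lower in PM than in KO cells (log2 difference -0.70, limma adjusted p = 0.00450), as was Mapk14 (-1.05, adjusted p = 1.75e-05). Rasgrp1, a RAS exchange factor of T cells, was higher in PM than in KO cells (0.56, adjusted p = 0.0465). In KO against het cells at 4 h Rasal3 was higher by 1.08 (adjusted p = 0.000178), Rasa1 by 0.87 (adjusted p = 0.000126) and Araf, a RAF kinase gene, by 0.40 (adjusted p = 0.0318). Among immediate early genes Egr1 was higher by 0.82 (adjusted p = 0.00253) and Ier3 differed by -1.04 (adjusted p = 0.00230) in the same comparison.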
